A study of Mus musculus with 6 samples.

Results

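The 8 genes described here, Mbp, Pmp22, Mal, Mag, Ugt8a, Sox10, S100b and Fabp7, are genes of myelin and of the glial cells that accompany nerves, followed in mouse olfactory epithelium across 6 Affymetrix mouse 430 2.0 arrays. They were chosen by measured values, the high signals of some of them on 1 array, the library labelled heterozygous 1, so their values there are given as a description with no test. Every probe set that the platform annotation assigns to 1 of these genes alone was taken, which gave 20 of the 45101 probe sets on the array and 8 of the 18194 genes named. The study compared 3 arrays of olfactory epithelium from mice homozygous for the OMP-GFP allele with 3 from mice heterozygous for it. As background, this allele puts green fluorescent protein in the place of the coding sequence of Omp, which encodes olfactory marker protein of mature olfactory neurons. All 6 samples therefore carry at least 1 OMP-GFP allele, and no wild-type array was analysed here. The labels give no age, strain, sex or pooling of animals, so the spread between arrays may be technical or biological. Xist, which is expressed from the inactive X chromosome of females and was chosen after its values were seen, differed between arrays. Its probe set 1436936_s_at read 112, 5727.1 and 10210.3 in homozygous 1, 2 and 3, and 7041.2, 9957.2 and 8164.1 in heterozygous 1, 2 and 3, so homozygous 1 stood apart.

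Myelin is the layered membrane that glial cells wrap around axons. Schwann cells make it in peripheral nerves and oligodendrocytes make it in the brain and spinal cord. The axons of olfactory neurons are not myelinated: they are bundled by olfactory ensheathing cells, glia that share the transcription factor Sox10 with Schwann cells and express S100b and Fabp7. The nasal lining also holds branches of the trigeminal nerve, whose larger fibres are myelinated by Schwann cells. In RNA from whole tissue, more cells of a type and more RNA per cell cannot be told apart.

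The arrays were first compared as a whole. Median MAS5 signals lay between 147.9 and 163.7, and the ratio of the 3-prime to the 5-prime Gapdh control, a measure of RNA quality, was 0.730 on the library labelled heterozygous 1 and 0.705 to 0.755 on the other 5 arrays. Of the Omp probe sets, 1422199_at read 5.7, 8.8 and 31.3 in homozygous 1, 2 and 3, and 26.3, 4663.8 and 9143 in heterozygous 1, 2 and 3, so the library labelled heterozygous 1 lay with the homozygous arrays there. The other, 1422200_at, read 7918.5 to 8774.4 on all 6 arrays. The position of either probe set in the OMP-GFP allele is unknown here, and the label was kept. Markers of mature olfactory neurons were bright on every array, Stoml3 reading 15125.1 to 20030.7 and Gng13 reading 9890.2 to 13158.4. Each of the 3 probe sets of Gfap, an intermediate filament gene of astrocytes, read 142.5 or less. Other genes of the astrocyte list used below were bright, Gja1 reading 8105.3 to 10295.2 and Aqp4 reading 4644.2 to 5415.9.

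On the library labelled heterozygous 1 most Mbp probe sets and Pmp22 stood far above the other 5 arrays, and Ugt8a, Mal and Mag stood less far above. The glial genes Sox10, S100b and Fabp7 did not stand apart in this way. Mbp read 6.47 to 10.4 times the mean of the other 5 arrays at 6 of its 8 probe sets. Pmp22 read 4.73 times that mean. Ugt8a, Mal and Mag read 1.5 to 2.15 times that mean. Signal was highest on this array for 15 of the 20 probe sets, beside 14.2% of all probe sets in the table. Differences below were taken as log2(signal + 38.8), where the offset is the 25th percentile of all values and makes folds of dim probe sets smaller. On that scale 8 of the 20 stood at least 1 above the mean of the other 5 arrays, beside 0.104% of all probe sets. Both shares describe the contrast by which the genes were chosen.

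**Figure D1:**
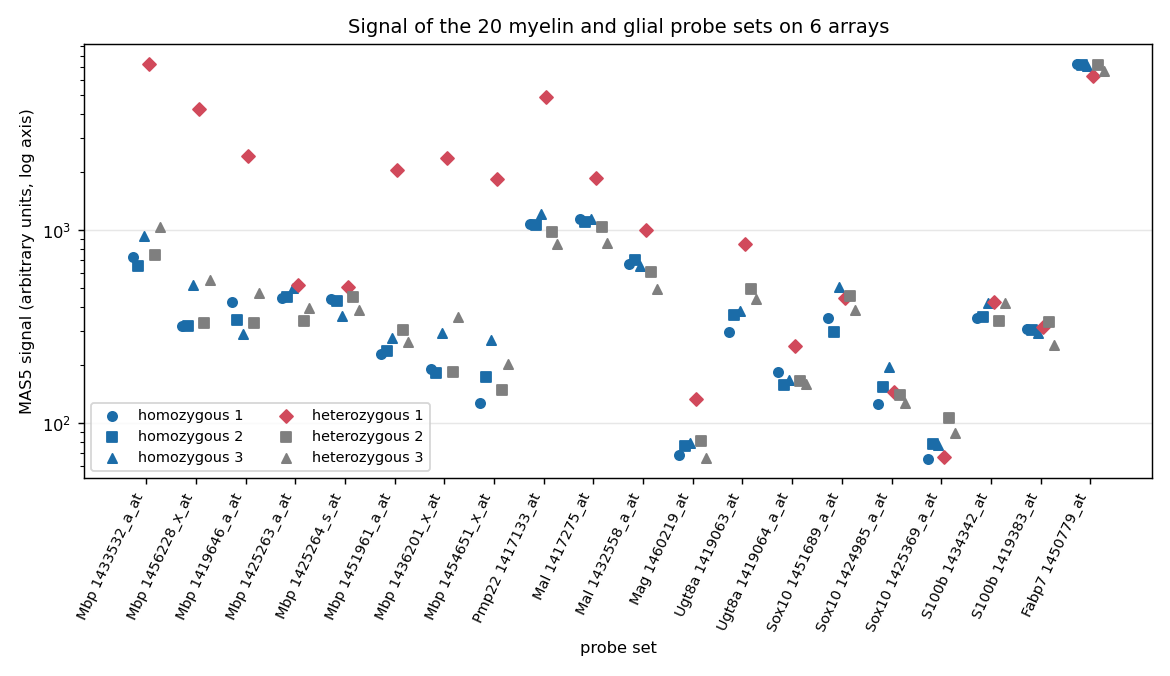
MAS5 signal (log axis) of each of the 20 probe sets of the 8 genes on the 6 arrays, with homozygous arrays in blue, the library labelled heterozygous 1 as red diamonds and heterozygous 2 and 3 in grey. The red diamonds stand apart at 6 Mbp probe sets and at Pmp22, lie among the other arrays at Sox10 and at S100b 1419383_at, slightly above them at S100b 1434342_at and below them at Fabp7.

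Mbp encodes myelin basic protein, which holds the inner faces of compact myelin membrane together. Its brightest probe set, 1433532_a_at, read 729, 655.2 and 928.1 in homozygous 1, 2 and 3, and 7268.5, 739.7 and 1037.9 in heterozygous 1, 2 and 3. The library labelled heterozygous 1 was thus the only array of this probe set above 1037.9, and the other 5 were spread over less than a doubling. The difference between that library and the mean of the other 5 was 3.11 on the log2 scale, where the SD over the other 5 was 0.26. Probe set 1456228_x_at read 320.2, 318.4 and 519.9 in homozygous arrays, and 4224.3, 328.3 and 551 in heterozygous 1, 2 and 3. The remaining 4 high Mbp probe sets, 1419646_a_at, 1451961_a_at, 1436201_x_at and 1454651_x_at, read 2405.2, 2058.3, 2368.8 and 1840.5 on the library labelled heterozygous 1. On the other 5 arrays these 4 ranged over 289.7 to 473.7, 227.6 to 305.5, 181.1 to 354.1 and 127.8 to 270.3, in that order.

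The probe sets of Mbp disagreed among themselves. At 1425263_a_at the signal was 443.2, 447.6 and 504.2 in homozygous arrays, and 519.3, 337.2 and 396.5 in heterozygous 1, 2 and 3. Probe set 1425264_s_at gave 441.7, 427.8 and 357.6 in homozygous arrays, and 506.6, 447.6 and 383.5 in heterozygous 1, 2 and 3. Both were highest on the library labelled heterozygous 1, but by 0.28 on the log2 scale at each, against 2.59 to 3.29 at the other 6. The Mbp locus also makes golli transcripts, which share exons with the myelin transcripts, and which transcripts each probe set reads is not given here. In the Affymetrix scheme the suffix x marks probes that may also bind other sequences and the suffix s marks probes shared by several transcripts.

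Pmp22 encodes a membrane protein of compact peripheral myelin, and changes in its gene dosage cause inherited neuropathies in people. Its probe set, 1417133_at, read 1081.4, 1061.9 and 1205.6 in homozygous arrays, and 4898.6, 976.7 and 850.8 in heterozygous 1, 2 and 3. The highest value was again on the library labelled heterozygous 1, and heterozygous 2 and 3 were the lowest of all. That library stood 2.21 above the mean of the other 5 arrays on the log2 scale, with an SD of 0.18 over those 5. Pmp22 is also expressed outside glia, in fibroblasts and epithelia, and none of the 6 arrays read below 850.8.

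Mal encodes a small membrane protein of lipid rafts in myelin and in the apical traffic of epithelial cells. Probe set 1417275_at read 1145.8, 1100.3 and 1142 in homozygous arrays, and 1870.2, 1042 and 854.9 in heterozygous 1, 2 and 3. Its second probe set, 1432558_a_at, read 669.7, 697.7 and 651.1 in homozygous arrays, and 999.4, 606.9 and 496.7 in heterozygous 1, 2 and 3. Both probe sets ranked the heterozygous arrays alike, with the library labelled heterozygous 1 highest and heterozygous 3 lowest, and with every homozygous array between them. Above the other 5 arrays the library labelled heterozygous 1 stood by 0.81 and 0.65 on the log2 scale.

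Mag encodes myelin-associated glycoprotein, an adhesion molecule of the myelin membrane that faces the axon. It was dim, at 68.1, 76.3 and 78.9 in homozygous arrays, and 133.4, 81.3 and 66.1 in heterozygous 1, 2 and 3. It was below the filter on dim probe sets, which lies near a mean signal of 154.6, so it was not tested. The other 5 arrays spanned 66.1 to 81.3 and the library labelled heterozygous 1 lay outside that range. Detection calls were not used here, so a dim signal was not called absent.

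Ugt8a encodes the enzyme that makes galactosylceramide, the main glycolipid of myelin. Probe set 1419063_at read 295.6, 362.9 and 381 in homozygous arrays, and 848.9, 493.7 and 438.8 in heterozygous 1, 2 and 3. All 3 heterozygous arrays lay above all 3 homozygous arrays, which held for no other of the 20 probe sets. Groups did not overlap for 10.8% of all probe sets in the table. The second probe set, 1419064_a_at, read 184.9, 158.3 and 167.8 in homozygous arrays, and 251.5, 166.1 and 159.5 in heterozygous 1, 2 and 3. There the groups overlapped, because only the library labelled heterozygous 1 stood above the homozygous range.

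Promoter sequences are shown for Pmp22, Mal, Mag and Ugt8a, since these stood high together on 1 array. They are the 250 bases before the most upstream start of each gene, from RefSeq on GRCm38.p6, written 5′ to 3′ on the strand of the gene. Capitals mark matches on either strand to the core letters bound by Sox proteins, searched as the letters ACAAAG with their variant ACAATG, and the letters TCAAAG with their variant TCAATG.
Pmp22, chr11:63128732-63128981, plus strand: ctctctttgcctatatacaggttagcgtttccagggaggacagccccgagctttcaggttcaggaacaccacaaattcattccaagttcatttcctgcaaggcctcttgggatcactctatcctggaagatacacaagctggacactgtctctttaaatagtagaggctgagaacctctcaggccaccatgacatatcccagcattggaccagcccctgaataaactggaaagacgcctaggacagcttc
Mal, chr2:127656696-127656945, minus strand: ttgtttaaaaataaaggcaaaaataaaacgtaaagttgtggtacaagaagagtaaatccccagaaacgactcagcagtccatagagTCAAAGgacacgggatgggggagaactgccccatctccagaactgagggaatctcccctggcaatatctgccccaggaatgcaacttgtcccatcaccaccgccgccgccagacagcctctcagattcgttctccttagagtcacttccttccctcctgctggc
Mag, chr7:30914923-30915172, minus strand: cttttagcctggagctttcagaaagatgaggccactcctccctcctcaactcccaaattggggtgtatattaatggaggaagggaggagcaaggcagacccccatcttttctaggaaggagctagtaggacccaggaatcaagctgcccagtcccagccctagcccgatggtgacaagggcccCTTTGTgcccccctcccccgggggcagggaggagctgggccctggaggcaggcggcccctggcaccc
Ugt8a, chr3:125938653-125938902, minus strand: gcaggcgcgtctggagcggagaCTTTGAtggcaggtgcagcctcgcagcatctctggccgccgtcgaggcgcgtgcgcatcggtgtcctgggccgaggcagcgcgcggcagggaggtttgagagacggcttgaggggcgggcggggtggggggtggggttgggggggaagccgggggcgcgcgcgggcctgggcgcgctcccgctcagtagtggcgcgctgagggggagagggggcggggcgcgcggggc

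A match was found in Mal, Mag and Ugt8a, at positions -164, -67 and -228 counted from the start of transcription, and none in this window of Pmp22. Windows of 6 of the 8 genes were used here, 11 in all, and Mbp and Sox10 had none among them. For the 8 genes, windows on the chromosome of Mbp were set aside beforehand, so Mbp could have none. The share over all windows had no such step. A match was held by 6 of the 11 (3 of Mag and 1 each of Mal, Ugt8a and S100b), beside 39.4% of all 32851 windows of this length. The core letters of Egr2 sites, searched as GTGGGCG on both strands, were in 0 of the 11 windows and in 7.02% of all windows. The ends of the 2 motifs may share bases.

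Sox10, a transcription factor of Schwann cells, ensheathing cells and oligodendrocytes, did not follow the myelin genes. Probe set 1451689_a_at read 350.9, 297.6 and 505.1 in homozygous arrays, and 444.6, 456.7 and 383.5 in heterozygous 1, 2 and 3. The highest array was homozygous 3, and the library labelled heterozygous 1 ranked 3 of 6. Dimmer probe sets of Sox10 behaved alike, since the library labelled heterozygous 1 read 144.5 at 1424985_a_at, within 125.2 to 194.9 on the other 5 arrays. At 1425369_a_at it read 67.2, within 65.6 to 106.2.

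S100b encodes a calcium-binding protein of glial cytoplasm. Probe set 1434342_at read 350.2, 356.7 and 418.2 in homozygous arrays, and 425.7, 339.1 and 417.9 in heterozygous 1, 2 and 3. Its second probe set, 1419383_at, read 308.2, 302.4 and 294.7 in homozygous arrays, and 314.6, 334.1 and 254.9 in heterozygous 1, 2 and 3. The library labelled heterozygous 1 was highest at the first by a small margin and second highest at the other. Its differences from the mean of the other 5 arrays were 0.17 and 0.07 on the log2 scale.

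Fabp7, the brain fatty acid-binding protein of radial glia and ensheathing cells, had 1 probe set, 1450779_at. It read 7219.4, 7192.4 and 7071.6 in homozygous arrays, and 6290.3, 7181.4 and 6697 in heterozygous 1, 2 and 3. Here the library labelled heterozygous 1 was the lowest, 0.17 below the mean of the other 5 arrays on the log2 scale. After shifting all arrays to a common median that difference was -0.089.

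For a view of all genes, each was given by its brightest probe set, and genes whose mean log2 value lay under the median of all probe sets were set aside, leaving 11426. Among them 4 stood at least 1 above the other 5 arrays on the library labelled heterozygous 1, or 0.035%. These were Mbp, Pmp22 and Ugt8a of the 8 genes, in places 1, 2 and 4, and Ncmap in place 3. Ncmap encodes a protein of noncompact myelin in Schwann cells. It read 158.1, 170.6 and 147.2 in homozygous arrays, and 507.9, 171.1 and 166.2 in heterozygous 1, 2 and 3. Mal came in place 7, while Sox10, S100b and Fabp7 came in places 1744, 1700 and 9843.

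**Figure D2:**
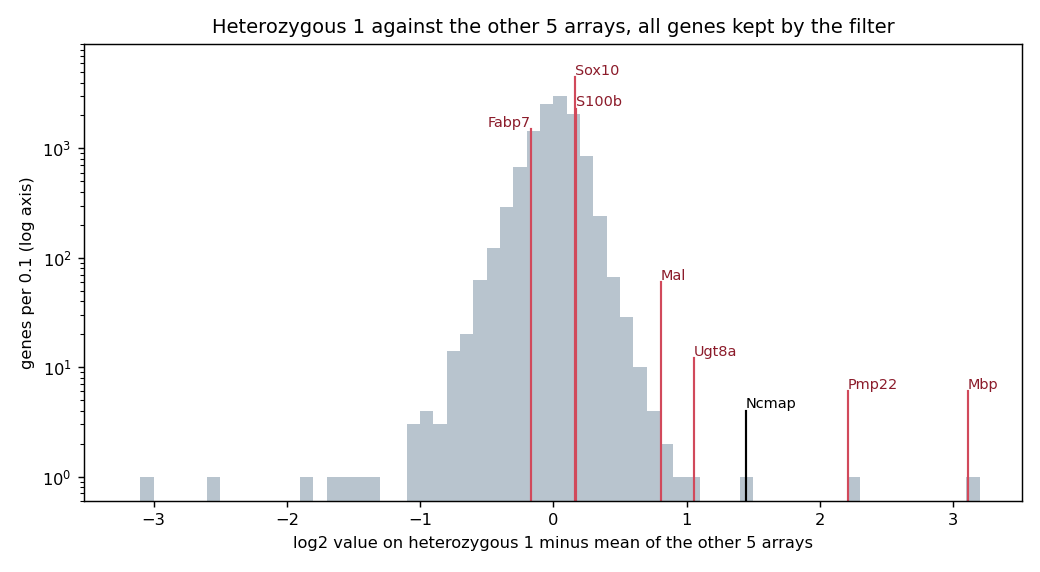
Number of genes (log axis) by the log2 value on the library labelled heterozygous 1 minus the mean of the other 5 arrays, for 11426 genes, with vertical lines at 7 of the 8 genes and at Ncmap (line heights carry no value). Mbp at 3.11 and Pmp22 at 2.21 lie farthest to the right, and Fabp7, Sox10 and S100b lie within the bulk of genes.

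Without the filter, 15 of 18194 genes, or 0.0824%, stood at least 1 above the other 5 arrays. Among the 15 were 3 of the 8 genes and 5 more from the lists of peripheral myelin and of myelin lipid synthesis used here, while 7 were in no list. The 5 were Pmp2, Fa2h, Ncmap, Pou3f1 and Art3, of which all but Ncmap were named after their values were seen. Pou3f1 read 88.5 on the library labelled heterozygous 1, close to 76.6 on heterozygous 3. Its second probe set read 16.9 on the library labelled heterozygous 1, within 8.3 to 42.7 on the other 5 arrays. Art3 read 153.8 on that library against 44.8 to 81.4 on the others. The second probe set of Art3 read 14.5 on that library, within 4.4 to 33.4 on the others. Pmp2, which encodes a lipid-binding protein of peripheral myelin, read 9, 40 and 2.7 in homozygous arrays, and 208.3, 8.7 and 23.7 in heterozygous 1, 2 and 3. Fa2h makes the hydroxylated fatty acids of myelin glycolipids. It read 61.7, 70.5 and 97.2 in homozygous arrays, and 352, 66.5 and 77.1 in heterozygous 1, 2 and 3. Both were under 100 on every array but the library labelled heterozygous 1.

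Related gene lists were then set beside the 8 genes. Their members were picked with the high Mbp and Pmp22 of this array known, so counts and medians are given without a test. Of 21 peripheral myelin and Schwann cell genes with a probe set, 13 were highest on the library labelled heterozygous 1, where 17.2% of all 18194 genes were. Of the 10 that passed the filter 6 were highest there, beside 21.4% of all 11426 genes that passed, and the rest of the 13 were dim. These 10 had a median of 0.19 above the other 5 arrays, beside 0.02 for all 11426 genes. Their summed signal was 17913.3 on that library and 15520.5 to 16486.9 on the others. Cnp, an enzyme of noncompact myelin, read 2309.7 on that library against 1340.7 to 1534.3 on the others, and Fam178b read 306 against 144.1 to 229.3. Cd9, a tetraspanin found in many cell types, and Pllp, a myelin proteolipid, read 9663.2 and 1441.5 there, within 9273.1 to 9788.9 and 984 to 1561.5. Egr2, the transcription factor that drives peripheral myelination, was too dim to test and was chosen after its values were seen. Its probe set 1427682_a_at read 155.7 on the library labelled heterozygous 1 and 47.1 to 112.4 on the other 5 arrays. At 1427683_at the values were 153.4 there and 61.8 to 152.8 on the others, so it was level with homozygous 2.

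Genes of brain myelin gave a mixed picture. Mog and Mobp, which encode myelin proteins of the central nervous system and were also chosen after their values were seen, read 2.4 and at most 39.3 on the library labelled heterozygous 1. On the other 5 arrays they read at most 23.3 and 51.9. Of 18 oligodendrocyte genes with a probe set, 7 were highest on the library labelled heterozygous 1, and their median difference from the other 5 arrays was -0.01. It was 0.13 over the 10 that passed the filter. Of the 10, Bcas1, which is also expressed in epithelia, stood highest at 631.8 against 286.8 to 401.2. Tspan2 lay lower, at 186.7 against 254.4 to 319. Olig1 read 4718.2 against 3687.2 to 4449.1.

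Of 20 myelin lipid genes with a probe set, Ugt8a not counted, 10 were highest on the library labelled heterozygous 1, beside 17.2% of all genes, mostly by small differences. The 18 that passed the filter had a median of 0.09 and none reached 1. Gal3st1, which adds the sulfate to galactosylceramide, read 212.3 on the library labelled heterozygous 1 against 165 to 181.3 on the others. The cholesterol enzyme gene Fdft1 read 3788.5 against 2847.5 to 3477.3, and Dhcr7 read 477.1 against 332.4 to 463.3.

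The lists of ensheathing and immature glia and of astrocytes lay near or below the level of all genes. The 19 ensheathing and immature glia genes that passed the filter had a median of 0.01, and 3 of all 23 with a probe set were highest on the library labelled heterozygous 1. Ednrb, an endothelin receptor of neural crest glia, read 193.3 there against 252 to 357.4, and Ptprz1 read 819.2 against 965.1 to 1087.6. Ncam1 read 5828.2 against 4715.9 to 5226.7. The 9 astrocyte genes that passed had a median of -0.08. The 11 glial transcription factors, among them factors of myelinating glia, had one of -0.13, or -0.06 without homozygous 3.

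Genes of axons and of other cells were compared in the same way. Those of the axon side of myelin had a median of 0.08 over 11 genes, with Sptbn4, a spectrin of the node of Ranvier, at 970.2 against 726 to 871.2 and the neurofilament gene Nefl at 361.7 against 402.2 to 1026.4. Over 5 sensory nerve genes the median was 0.01, but -0.15 without homozygous 2 and -0.09 without homozygous 1. Prph, which encodes the neuronal filament protein peripherin, read 2281.2 against 1347.6 to 2221.6, and was the only 1 of the 5 highest there. Scn9a, a sodium channel gene, was lowest there, at 2188.6 against 2252 to 3363.5. Isl1 read 572.8, within 566.7 to 827.1. Mature olfactory neuron, perineurial, olfactory bulb and macrophage genes had medians of 0.16, 0.06, -0.16 and -0.12. The olfactory bulb median was -0.05 without heterozygous 3. On that array some bulb neuron genes were high, Rbfox3 reading 791.1 there and 49.5 to 184.2 on the other 5 arrays. Others were lowest there, Cdhr1 at 2041.5 and Eomes, named after its values were seen, at 205.2. The macrophage median was -0.06 without homozygous 1. Of skeletal muscle and adipocyte genes 1 and 2 passed the filter. The part of any of these cell types in the values of the 8 genes was not tested.

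**Figure D3:**
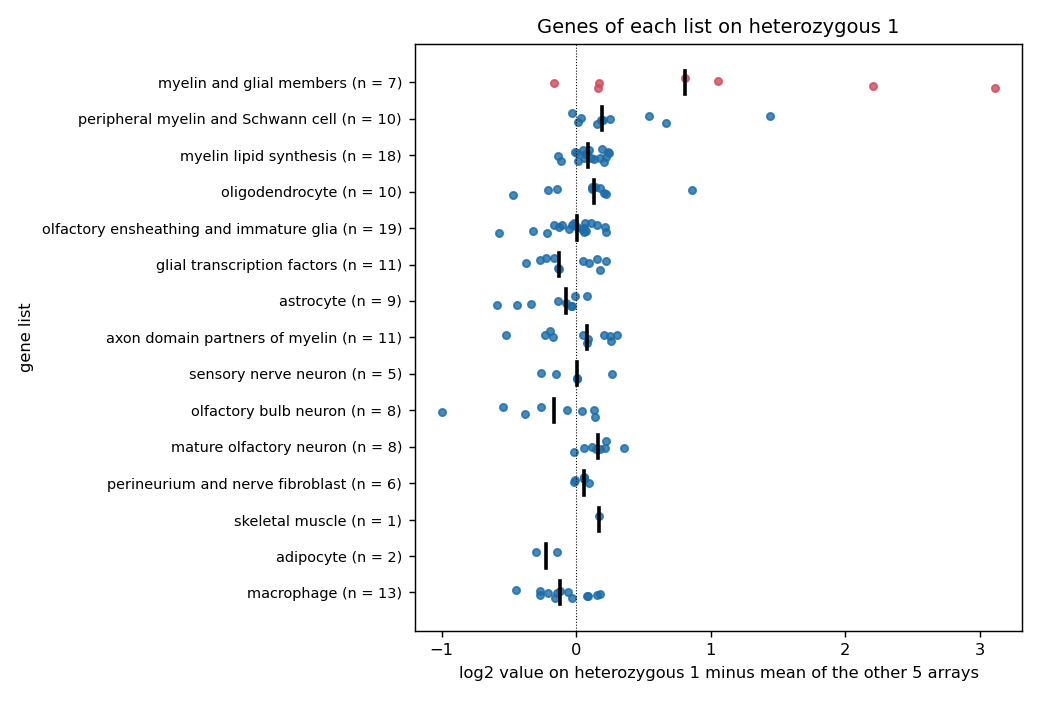
Log2 value on the library labelled heterozygous 1 minus the mean of the other 5 arrays for each gene (point) of each list, with the list's median as a black bar and the number of genes that passed the filter in brackets. The 7 plotted members have a median of 0.81, and among other lists only Ncmap lies above 1.

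The genes whose values most resembled those of the members were found by a rule. Log2 values of each gene were centred on their mean over the 6 arrays and set against the mean centred profile of the 7 members that passed the filter. The 12 genes of smallest root-mean-square difference were named. In order they were Cnp, Sgsm3, Bcas1, Ncmap, Gmeb1, Cc2d1b, Brf1, Sec22c, Ino80b, Ajuba, Pcdhb19 and Pik3cd. Their root-mean-square differences ran over 0.16 to 0.22 on the log2 scale, beside a median of 0.41 over all genes and 0.18 to 0.79 for the members themselves. Cnp, Bcas1 and Ncmap are in the myelin lists used here, and the other 9 are in no list.

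**Figure D4:**
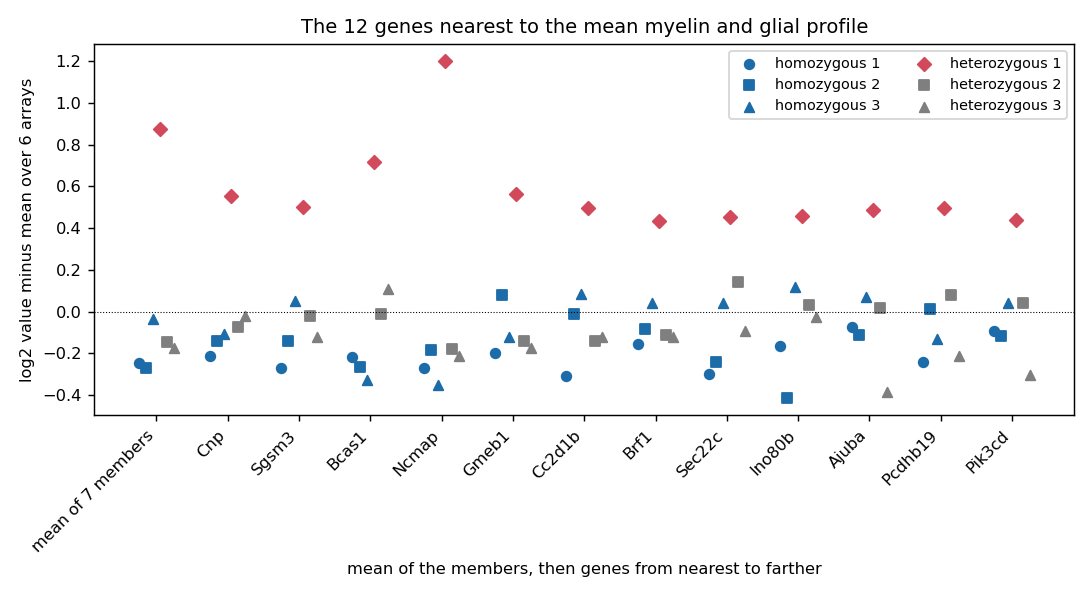
Log2 value minus the mean over the 6 arrays, for the mean of 7 members (left) and for the 12 genes nearest to it, with 1 marker per array as in the plot of signals by array. For every gene shown the library labelled heterozygous 1 is highest, as it is in the profile to which they were matched. It stands 0.52 (Brf1 and Pik3cd) to 1.44 (Ncmap) above the mean of the other 5 arrays. On the plotted scale, centred on all 6 arrays, the mean of the members on it is 0.87.

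The comparison of the study, homozygous against heterozygous, was then made for the 17 of the 20 probe sets that passed the filter. The 3 left out were Mag and the 2 dimmer probe sets of Sox10. None of the 17 passed an adjusted p of 0.05 in limma, as for 0% of all 22514 tested probe sets. The Omp probe set 1422199_at did not pass either, at -4.74 on the log2 scale and a limma adjusted p of 0.859. Without the library labelled heterozygous 1 it differed by -6.96, with a limma adjusted p of 4.9e-06. At an unadjusted p under 0.05 there was 1 of 17, the Ugt8a probe set 1419063_at, beside 5.73% of all. By sign alone 13 of the 17 were lower in homozygous arrays, where 46.4% of all were. The median of the 17 was -0.17 on the log2 scale, beside 0.01 over all. The choice of genes by high signals on an array labelled heterozygous favours this sign, and 8 of the 17 probe sets are of Mbp. The adjusted p of the 17 lay between 0.859 and 0.9997.

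The sizes of the Mbp and Pmp22 differences rested largely on the library labelled heterozygous 1, and without it 9 of the 17 were lower in homozygous arrays. Mbp 1433532_a_at averaged 771 ± 141 in the 3 homozygous arrays and 3015 ± 3686 in the 3 heterozygous ones (SD), which is -1.19 ± 0.63 (SE) on the log2 scale, with a limma adjusted p of 0.893. Without that library the difference was -0.19 ± 0.17, with a limma adjusted p of 0.885. Pmp22 averaged 1116 ± 77.9 in the 3 homozygous arrays and 2242 ± 2302 in the 3 heterozygous ones (SD), or -0.51 ± 0.49 with a limma adjusted p of 0.921. Without that library its sign turned, at 0.28 ± 0.10 and a limma adjusted p of 0.625. Both Mal probe sets were near 0 with all arrays, at -0.07 and 0.0014, and stood at 0.25 and 0.27 without it.

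Ugt8a 1419063_at was lower in homozygous arrays with and without that library. It averaged 346.5 ± 45 in the 3 homozygous arrays and 594 ± 223 in the 3 heterozygous ones (SD), or -0.67 ± 0.20 on the log2 scale, with a limma adjusted p of 0.859. The difference was -0.40 ± 0.14 without the library labelled heterozygous 1, with a limma adjusted p of 0.612. At 1419064_a_at the difference was -0.12 with all arrays and 0.05 without that library, so the probe sets of Ugt8a disagree.

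Sox10, S100b and Fabp7 showed small differences in either comparison. Sox10 1451689_a_at differed by -0.17 ± 0.16, and by -0.14 without the library labelled heterozygous 1. It differed by -0.02 without homozygous 2 and by -0.36 without homozygous 3. The probe sets 1434342_at and 1419383_at of S100b differed by -0.06 ± 0.12 and 0.0096 ± 0.12, against a spread between arrays of the same size. Fabp7 averaged 7161 ± 78.7 in the 3 homozygous arrays and 6723 ± 446 in the 3 heterozygous ones (SD), or 0.09 ± 0.06 with a limma adjusted p of 0.909.

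Without the library labelled heterozygous 1, 3 homozygous arrays were set against 2 heterozygous ones. Again 0 of the 17 passed an adjusted p of 0.05 in limma, where 0.111% of all did. At an unadjusted p under 0.05 there were 5 of 17, beside 7.06% of all. They were Pmp22, both Mal probe sets and Mbp 1425263_a_at, higher in homozygous arrays, and Ugt8a 1419063_at, lower. The 9 of 17 lower in homozygous arrays stand beside 46.2% of all, with a median of -0.01. For 6 of the 20 probe sets the homozygous arrays did not overlap with heterozygous 2 and 3, beside 21.3% of all probe sets.

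**Figure D5:**
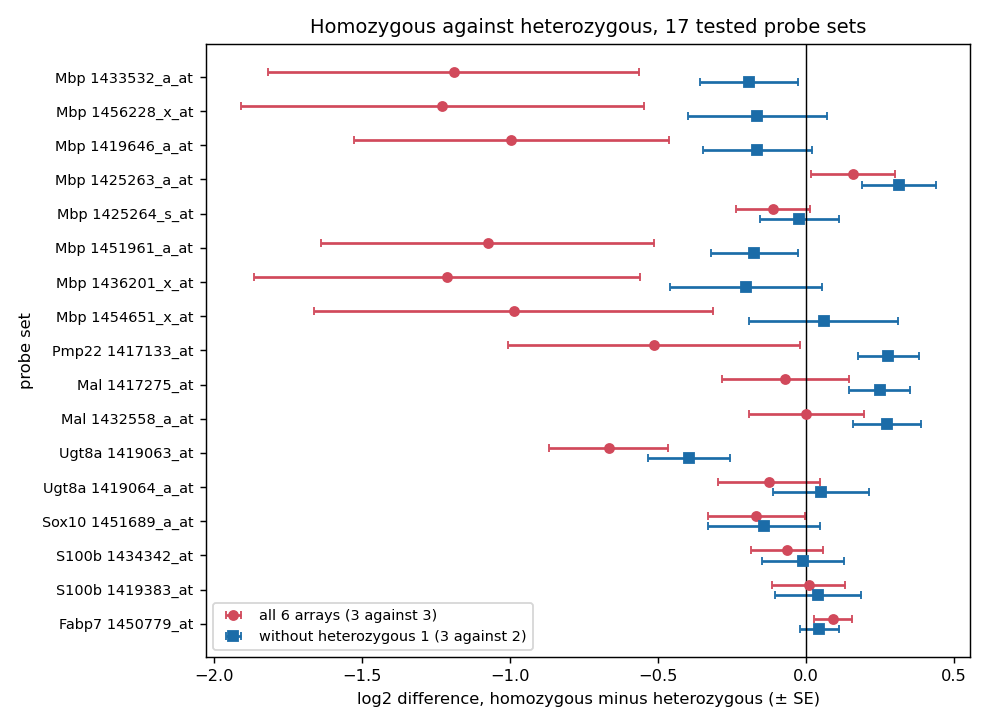
Log2 difference, homozygous minus heterozygous, with its SE for each of the 17 tested probe sets, from all 6 arrays (red circles) and without the library labelled heterozygous 1 (blue squares). The 6 Mbp probe sets between -1.23 and -0.99 in red lie between -0.20 and 0.06 in blue, and Pmp22 is at -0.51 in red and at 0.28 in blue.

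No gene of the related lists passed an adjusted p of 0.05 in limma between homozygous and heterozygous arrays. At an unadjusted p under 0.05 the peripheral myelin list had 0 of 10 genes higher and 0 lower, beside 2.41% of all 11426 genes in each direction. In the myelin lipid list 0 of 18 were higher and 2 lower, Fdft1 at -0.20 and Dhcr7 at -0.29 on the log2 scale. Bcas1 and Olig1, 2 of 10 oligodendrocyte genes, were lower at -0.54 and -0.25. Among 19 ensheathing and immature glia genes 3 were higher, Apod with the widest difference at 0.45, and 0 were lower. Of 13 macrophage genes 5 were higher and 0 lower, of 2 adipocyte genes 2 were higher, and of 11 glial transcription factors 1 was higher and 2 were lower. The part of these cell types in the differences of the 8 genes was not tested. Ncmap differed by -0.54 ± 0.31 with all arrays and by -0.07 without the library labelled heterozygous 1.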

How the data were processed

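RNA from 3 homozygous and 3 heterozygous samples, grouped by title, was read on mouse 430 2.0 arrays. The authors deposited 1 intensity per probe set and array, a linear MAS5 signal as the submitters' processing notes name it; no source used here gives its version or settings. A 2% trimmed mean came to 500.002 on every array, so no further scaling was applied, and 2 arrays shared at most 101 equal values. No genome build is involved in the values. Promoters are from RefSeq GRCm38.p6.

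Values were analysed as log2(signal + 38.8). Only the brighter probe sets, with a mean log2 value not under the median of all (22514 without controls), were tested with limma 3.58.1 in R 4.3.3 (lmFit, eBayes with intensity trend, Benjamini-Hochberg at 0.05, 4 residual and 6.68 prior degrees of freedom). The median SE was 0.11, a precision set by the number of arrays. The test was checked on simulated data with independent noise. These held no single array standing apart, so the check does not cover that case. A gene was given by its brightest tested probe set. The members and the gene lists were chosen with earlier results of these data known. All probe sets of the members were named, and from each list described the 3 brightest genes and the 3 of largest difference on heterozygous 1 could be named, beside Gfap and those marked in the text. Alternatives were other offsets, scalings, filters and variance models, a replicate block, a threshold of 0.1 and each array left out in turn.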

Additional observations from a re-analysis of the deposited data

How the results depend on the processing

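No probe set passed between the groups with all arrays. With the pooled-median offset 1 passed, and leaving out single arrays gave 0 to 25, with 25 without the library labelled heterozygous 1 and 1 without homozygous 3. The count at an unadjusted p under 0.05, 1291, was 2456 with no filter, 585 with the filter at the 75th percentile and 744 to 2101 with single arrays left out, the lowest without homozygous 2 and the highest without heterozygous 3; fewer or more probe sets were tested in the first 2 settings, and for arrays the cause was not tested. The median of the members on the library labelled heterozygous 1, 0.63 above the other 5 arrays, was 0.45 with the pooled-median offset and 0.76 with an offset of 1, as the offset shrinks differences of dim probe sets, and 0.58 to 0.66 with single arrays left out.

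For homozygous minus heterozygous, 14 of 244 alternative values over the 17 probe sets changed sign, at 6 probe sets, and none of the 17 passed under any alternative. With single arrays left out the range was -1.61 to 0.060 for Mbp 1454651_x_at, -0.96 to 0.28 for Pmp22, -0.30 to 0.25 for Mal 1417275_at, -0.20 to 0.27 for Mal 1432558_a_at, -0.22 to 0.051 for Ugt8a 1419064_a_at and -0.092 to 0.080 for S100b 1419383_at. The upper end was without the library labelled heterozygous 1 for the first 5. Mal 1432558_a_at turned to -0.0054 with the pooled-median offset, -0.0042 after quantile normalization and -0.041 after a shift to a common median, and S100b 1419383_at to -0.013 and -0.033 in the last 2. With the replicate block 0 probe sets passed and 1106 had an unadjusted p under 0.05. Deviations of same-numbered arrays correlated at 0.02, -0.12 and -0.05, and those of differently numbered arrays at -0.07 to 0.13. With 3 arrays in each group this cannot decide whether the numbers pair the samples, which is unknown. Medians of the related lists on the library labelled heterozygous 1 ran, with single arrays left out, over 0.18 to 0.22 for peripheral myelin, 0.060 to 0.11 for myelin lipids, 0.11 to 0.17 for oligodendrocyte, -0.011 to 0.025 for ensheathing glia and -0.15 to 0.030 for sensory nerve genes.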

Other observations

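On the library labelled heterozygous 1, 10 of 11426 genes stood at least 1 below the other 5 arrays on the log2 scale. They were 5430401F13Rik, Mup5, Klk1, Pou5f2, A4gnt, Kcnj11, 5430402E10Rik, Lcn11, Gm14743 and 2010315B03Rik. Of these, 5430401F13Rik was at 2794.4 against 20852.5 to 26816.7 on the others, the major urinary protein gene Mup5 at 518.2 against 1582 to 6894, the kallikrein gene Klk1 at 679.3 against 1369.1 to 4246.7 and the lipocalin gene Lcn11 at 8610.7 against 14844.7 to 20817.3. Of the 7 unlisted genes that stood at least 1 above the others without a filter, Ttr, which encodes transthyretin, read 264.2 against 35.1 to 140.5 and Smco3 read 140.6 against 30.8 to 55.3. These genes were chosen after their values were seen.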
